A study of Mus musculus with 20 samples.

Results

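Microglia, the resident macrophages of the brain, were compared between adult mice labelled T2MG and adult mice labelled Control, by sequencing poly-A RNA of sorted cells. The comparison held 8 of the 20 libraries of the series: T2MG 1 to 4 against Control 1 to 4, all at postnatal day 60 (P60), with counts for every gene in the deposited table. It was repeated without Control 1, which carried reads of neutrophil, monocyte and lymphocyte genes. T2MG libraries 1 to 3 were labelled as without TGF-beta signalling; T2MG 4 has no such entry, and its title put it in the group. For Controls the genotype entry says Control and no more. According to the design text, the sorted microglia lacked either 1 or 2 copies of Tgfbr2, and 4 animals of each genotype were used at P60. The strain entry named C57Bl6 and FVB for all 8 libraries alike and told none apart. The sources used here do not give the Cre driver, the deleted part of Tgfbr2, the time of deletion or the sort gates. The 6 libraries at postnatal day 15 (P15), T2MG 1 to 3 and Control 1 to 3, were used for 1 comparison between ages.

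TGF-beta is a secreted cytokine that is stored in a latent form and released by integrins at the cell surface. It binds the type II receptor Tgfbr2, which recruits and activates the type I receptor Tgfbr1; the pair then phosphorylates SMAD2 and SMAD3, which enter the nucleus with SMAD4. In the brain this signal is known to maintain the gene programme of resting, or homeostatic, microglia, and mice without it in microglia are known to lose markers such as P2ry12 and Tmem119.

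Depth at P60 was 12726594 to 16526122 counts per library. Levels are given below as CPM, the count normalised to a fixed library size, with library sizes first scaled by the TMM method to set libraries on a common footing. The first principal component of log2 CPM held 68.6% of the variance and placed T2MG libraries at 80.2 to 91.35, Controls 2 to 4 at -112.8 to -104.3 and Control 1 between them at -19.29. Control 1 also lay alone on the second component, at 105.7 (14.2% of the variance). Each group held 2 libraries with more than 10 CPM of Xist, transcribed from the inactive X chromosome, and 2 with more than 10 CPM of the Y-linked gene Ddx3y, so both groups mixed females and males.

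The list of 23 border-associated macrophage genes summed to 16182 to 22553 CPM in T2MG libraries, against 1445 CPM in Control 1 and 783 to 888 CPM in Controls 2 to 4. Neutrophil genes summed to 1172 to 1994 CPM in T2MG libraries, against 9865 CPM in Control 1 and 115 to 208 CPM in the other Controls. Monocyte genes summed to 1478 to 3790 CPM in T2MG libraries, against 1550 CPM in Control 1 and 63.5 to 116 CPM in Controls 2 to 4. These sums show that Control 1 differed from the other Controls in several kinds of cell marker, and its values are named apart below wherever it stood alone.

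Loss of TGF-beta signalling in adult microglia went with different levels of a large share of genes. The difference was tested with edgeR's quasi-likelihood test over all 20 libraries, and a gene was called when its p-value, adjusted by the Benjamini-Hochberg method over 15568 genes tested, was under 0.05. Fold changes are log2 values of T2MG over Control with their standard error (SE), so 1 unit is a doubling. Of the 15568 genes, 6113 passed (39.3%); in T2MG libraries 3666 were higher (23.5%) and 2447 lower (15.7%). An unadjusted p under 0.05 was found for 7443. Counts of called list members below are to be read beside the shares of 23.5% and 15.7%. The split depended on the libraries in the fit: with the P60 libraries fitted alone, 2720 were called higher and 2938 lower of 12954 tested. The median over all genes was 0.14 on the log2 scale, so small changes depend on the scaling.

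Large changes were more often rises than falls. At least a 4-fold difference was reached by 1517 genes called higher and by 568 called lower, and at least a 64-fold difference by 74 and 49. Many of the rises were in scarce transcripts: of 6204 genes averaging under 10 CPM in both groups, 1340 were called higher and 395 lower, while of 9364 genes above that level 2326 were called higher and 2052 lower. Without Control 1, 7354 of 15542 genes were called (47.3%), 4833 higher (31.1%) and 2521 lower (16.2%), and the median over all genes was 0.22. Both fits shared 3454 genes called higher and 2253 called lower, and 0 genes were called in opposite directions. Control 1 also widened the spread: over the 9364 genes of at least 10 CPM, the median SD of log2 CPM was 0.163 among T2MG libraries and 0.228 among the 4 Controls, but 0.138 among Controls 2 to 4.

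**Figure D1:**
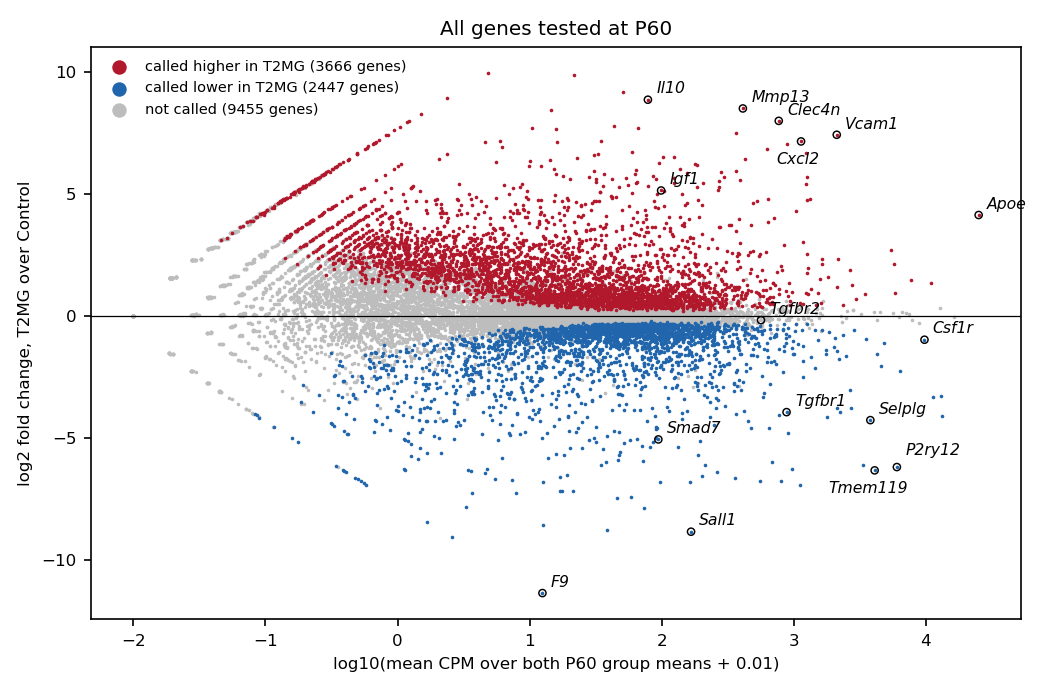
Log2 fold change of T2MG over Control at P60 (vertical axis) against the mean level over both groups (horizontal axis, log10 of CPM + 0.01) for 15568 genes tested. Red points are the 3666 genes called higher, blue points the 2447 called lower and grey points those not called, and 16 genes are labelled; rises reach far into low levels, and falls of over 6 units include abundant genes such as Tmem119 and P2ry12.

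Tgfbr2 itself (chr9:116084293-116175360, minus strand, GRCm38) had 496, 647, 452 and 541 CPM in T2MG libraries 1 to 4, against 551, 605, 649 and 581 CPM in Controls 1 to 4. The groups overlapped, and the log2 fold change was -0.16 (SE 0.19, adjusted p 0.544). Counts are given per gene, so a transcript with a part deleted can still be counted, and this value does not check the genotype labels. At P15 Tgfbr2 was called lower in T2MG libraries (-0.71, SE 0.23, adjusted p 0.0305). The difference between the P60 and the P15 effect was not called (0.55, SE 0.30, adjusted p 0.27).

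Its partner did differ. Tgfbr1, the type I receptor (chr4:47353222-47414931, plus strand), had 125, 118, 86.8 and 106 CPM in T2MG libraries, against 1663, 1778, 1765 and 1427 CPM in Controls, a fall of more than 10-fold with no overlap (log2 fold change -3.93, SE 0.29, adjusted p 1.35e-08). Of 10 tested receptors of the TGF-beta family other than Tgfbr2, 2 were called higher and 4 lower, with a median of -0.57. Of all genes, 23.5% were called higher and 15.7% lower. Eng, or endoglin, a coreceptor, had 16.4 to 25 CPM in T2MG libraries and 92.6 to 117 CPM in Controls (-2.22, adjusted p 9.99e-07). Acvr1, a type I receptor of bone morphogenetic proteins, also fell (-1.90, adjusted p 9.81e-08), while Acvrl1, a related type I receptor that partners endoglin, rose to 83.4 to 119 CPM in T2MG libraries, against 28.3 to 48.4 CPM in Controls (1.51, adjusted p 4.12e-05).

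Among ligands, Tgfb1, the main microglial isoform, had 208 to 282 CPM in T2MG libraries and 213 to 235 CPM in Controls and was not called (0.14, SE 0.25, adjusted p 0.682). Tgfb3, another isoform, had 9.86, 11.7, 9.74 and 12.6 CPM in T2MG libraries, against 0.416, 0, 0 and 0.08 CPM in Controls (log2 fold change 6.33, SE 0.88, adjusted p 1.90e-05; 8.31 without Control 1). Tgfb3 was thus near the detection limit in every Control and present in every T2MG library. Of the integrin subunits on the list, Itgb3, Itgav and Itgb5 went the other way, while Itgb1 and Itgb8 were not called lower. Itgb3 had 2.46, 1.78, 1.87 and 4.24 CPM in T2MG libraries, against 49.6, 70, 71.7 and 54.9 CPM in Controls (-4.56, SE 0.39, adjusted p 8.46e-08). Its partner Itgav (-2.02, adjusted p 1.25e-05) and the subunit Itgb5 (-1.63, adjusted p 7.20e-06) fell as well. Over the list of 14 ligands and activators, 6 genes were called higher and 3 lower, with a median of 0.64. Itgb3, Itgav and Itgb5 were the 3 that fell.

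Inside the cell, genes that TGF-beta is known to induce as a brake on its own signal were low. Smad7, the inhibitory SMAD, had 6.48, 3.39, 7.56 and 4.67 CPM in T2MG libraries, against 164, 191, 194 and 185 CPM in Controls (-5.05, SE 0.39, adjusted p 2.44e-08). All 4 T2MG libraries lay far below all 4 Controls, Control 1 included. Ski had 29.6 to 59.1 CPM in T2MG libraries and 294 to 522 CPM in Controls (-3.30, SE 0.33, adjusted p 5.30e-07), and the related corepressor Skil fell by 2.38 on the log2 scale (SE 0.27, adjusted p 1.79e-06). The signal carrier Smad3 had 14.9, 25.3, 15.1 and 16.3 CPM in T2MG libraries, against 74.4, 93.1, 86.5 and 84.3 CPM in Controls (-2.24, SE 0.20, adjusted p 1.52e-07). Smad1, which carries signals of bone morphogenetic proteins, fell less (-1.0, SE 0.11, adjusted p 1.40e-06). In all, 13 of 23 tested SMAD and feedback genes were called lower and 5 higher, with a median of -0.51.

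The 5 that rose included classical TGF-beta targets of other cell types. Klf10, a transcription factor named for its induction by TGF-beta, had 201 to 266 CPM in T2MG libraries and 61 to 78 CPM in Controls (1.71, adjusted p 4.30e-06). Tgfbi, a matrix protein, had 324, 310.1, 296 and 273 CPM in T2MG libraries, against 129, 30.9, 31.9 and 33.9 CPM in Controls (2.42, adjusted p 0.000145; 3.22 without Control 1). Cdkn1a, the cell cycle inhibitor p21, rose by 1.78 on the log2 scale (adjusted p 0.000829). These 3 genes were chosen after their values were seen.

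Transcription factors of the microglial lineage moved in both directions. Sall1, a zinc finger factor that defines microglia among brain macrophages (chr8:89027235-89044162, minus strand), had 0.916, 0.446, 0.857 and 0.647 CPM in T2MG libraries, against 242, 385, 378 and 329 CPM in Controls (log2 fold change -8.83, SE 0.64, adjusted p 1.35e-08). All T2MG libraries were below 1 CPM. Its relative Sall3 fell likewise, to 0.535 to 0.862 CPM in T2MG libraries, against 89.7 to 144 CPM in Controls (-7.41, SE 0.48, adjusted p 4.93e-09). Ikzf1, or Ikaros, a lymphoid and myeloid zinc finger factor, fell by 1.81 on the log2 scale (SE 0.13, adjusted p 7.99e-09).

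Other factors on the list are shared by all macrophages. Spi1, which encodes PU.1, had 514 to 582 CPM in T2MG libraries and 548 to 687 CPM in Controls and was not called (-0.20, SE 0.16, adjusted p 0.337), but was with the P60 libraries fitted alone (-0.30, adjusted p 0.0474). Irf8, its partner in macrophages, had 771 to 836 CPM in T2MG libraries and 1211 to 1259.5 CPM in Controls (-0.62, SE 0.13, adjusted p 0.000911). Spi1 and Irf8 were chosen after their values were seen. Spic, a relative of PU.1 known from iron-recycling macrophages of the spleen (chr10:88674772-88685015, minus strand), had 130.1, 114, 141 and 138 CPM in T2MG libraries, against 1.8, 0.426, 0 and 0.16 CPM in Controls (7.72, SE 0.61, adjusted p 3.07e-08; 9.30 without Control 1). Of the 20 factors on the list, 6 were called higher and 10 lower, with a median of -0.41.

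All 38 homeostatic microglia genes of the list were called lower in T2MG libraries, with and without Control 1. The list median was -4.07, against 0.14 over all genes tested, and log2 fold changes ran from -7.84 for the membrane protein Ecscr to -0.90 for the phagocytic receptor Mertk. Their summed level was 18779 to 19568 CPM in T2MG libraries, against 115624 CPM in Control 1 and 148780 to 158085 CPM in the other Controls. The members of this list are known microglial markers, and the list was assembled with earlier results of these libraries known. In bulk libraries, fewer cells that express these genes and less RNA of them per cell cannot be told apart.

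Surface markers fell steeply. Tmem119, a membrane protein used to mark microglia (chr5:113793729-113800516, minus strand), had 217, 55.4, 45.5 and 89.8 CPM in T2MG libraries, against 7481, 8580.4, 8208 and 8161 CPM in Controls (-6.31, SE 0.63, adjusted p 4.21e-07). P2ry12, the ADP receptor of surveying processes (chr3:59216272-59262871, minus strand), had 217, 144, 140.4 and 157 CPM in T2MG libraries, against 7541, 13483, 12040.5 and 14638 CPM in Controls (-6.18, SE 0.51, adjusted p 5.39e-08). For both genes, T2MG 1 held the most among T2MG libraries, and the groups stayed far apart. Siglech, a sialic acid-binding lectin, had 38.2, 16.7, 17.1 and 14 CPM in T2MG libraries, against 850.5, 1644, 1335 and 1536 CPM in Controls (-5.96, SE 0.59, adjusted p 4.18e-07). Selplg, a selectin ligand, had the smallest adjusted p of the list (1.57e-10), with 342 to 408 CPM in T2MG libraries and 6296 to 8026 CPM in Controls (-4.26, SE 0.20).

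Receptors that microglia need for contact with neurons and for survival also fell, by less. Cx3cr1, the fractalkine receptor, had 659.9, 567, 558 and 559.5 CPM in T2MG libraries, against 4373, 4959, 4971 and 4676 CPM in Controls (-3.02, SE 0.52, adjusted p 0.000188). Csf1r, the receptor for the survival factor CSF1, still had 5549 to 7745 CPM in T2MG libraries, against 9363 to 14664 CPM in Controls (-0.96, SE 0.26, adjusted p 0.00633). The fructose transporter Slc2a5, chosen after its values were seen, fell by 6.77 (SE 0.65, adjusted p 2.61e-07) and the secreted matrix protein Sparc by 6.09 (SE 0.42, adjusted p 8.57e-09) on the log2 scale. Adgrg1, an adhesion receptor, fell by 6.75 (SE 0.42, adjusted p 3.41e-09).

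**Figure D2:**
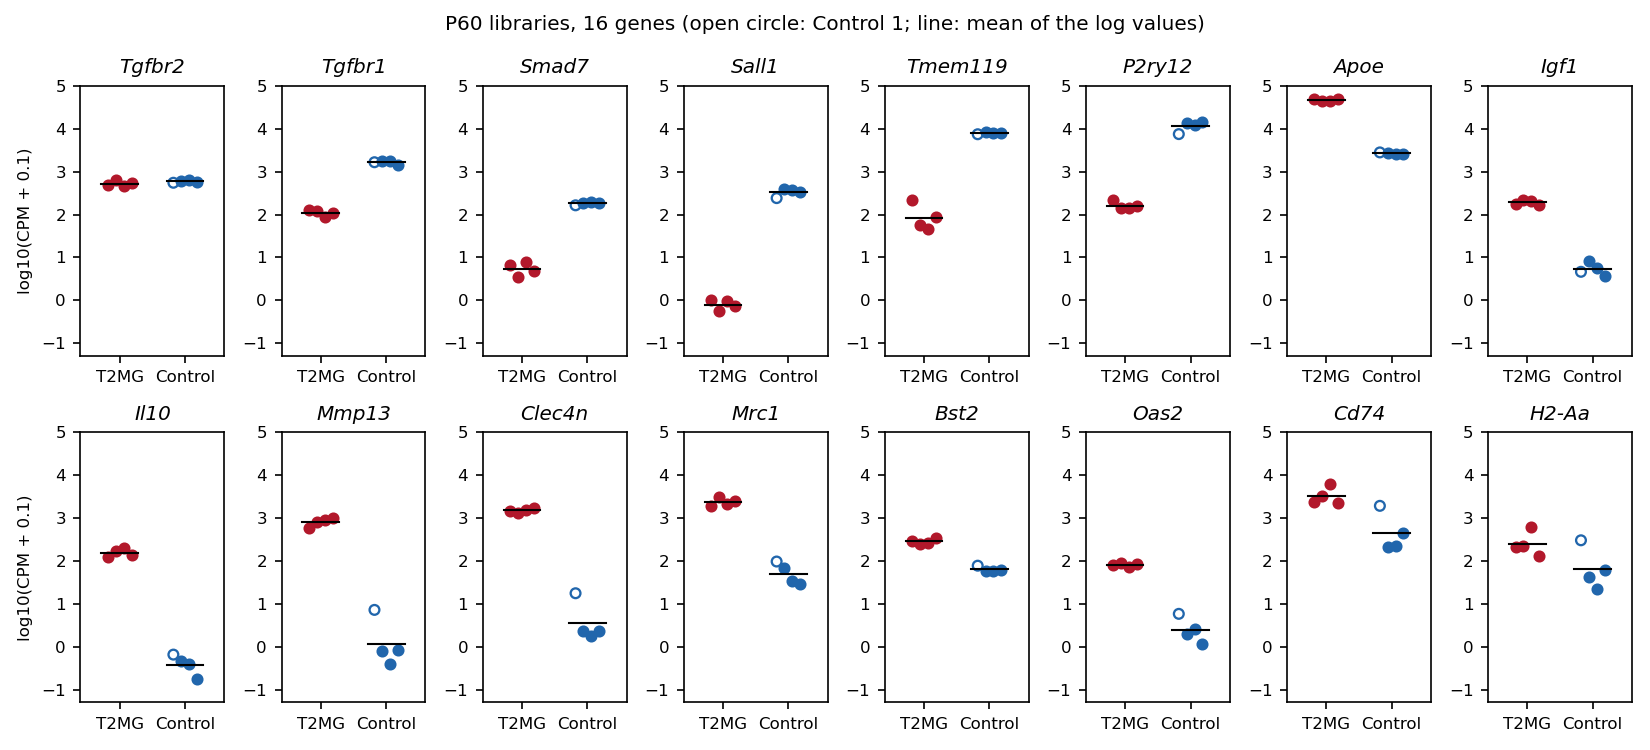
Level of 16 genes in each P60 library, as log10 of CPM + 0.1, with T2MG on the left and Control on the right of each panel. Points are libraries, the open circle is Control 1 and the line is the mean of the log values; Sall1, Tmem119 and P2ry12 separate the groups downwards, Apoe, Mmp13 and Il10 upwards, and Tgfbr2 overlaps.

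The steepest falls included homeostatic genes and genes of other functions. The 15 lowest log2 fold changes, among genes called in both fits with at least 10 CPM in a group and no overlap between groups (a separation that 38.4% of tested genes showed), ran from -11.34 to -6.79. F9, the clotting factor IX (chrX:59999464-60030759), had 0 counts in all 4 T2MG libraries, against 11.8, 30, 25.8 and 32.3 CPM in Controls, at least 429.8-fold lower against a floor of 3 counts over the group. Adamts16, a secreted metalloprotease, had 3 counts over the T2MG libraries and 1372 over the Controls, a Control over T2MG ratio per library size of 435.2 with a 95% exact interval of 148.6 to 2113. Atp8a2, a phospholipid flippase, had 0.352, 0, 0.312 and 0 CPM in T2MG libraries, against 57.7, 87.9, 81.5 and 82.2 CPM in Controls (-8.74, SE 0.49, adjusted p 9.57e-10). These genes were thus nearly silent in T2MG libraries.

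Olfml3, a secreted glycoprotein of microglia, had 50.1, 6.51, 7.25 and 9.7 CPM in T2MG libraries, against 2516, 2609.9, 2002 and 1776 CPM in Controls (-6.91, SE 0.81, adjusted p 2.98e-06). Mlxipl, the sugar-sensing factor ChREBP, had 4.86, 0.267, 0.624 and 0.862 CPM in T2MG libraries, against 164, 199, 206 and 199 CPM in Controls (-6.81, SE 0.69, adjusted p 5.26e-07). Rasgrp3, an activator of Ras signalling, had 6.69, 1.96, 1.33 and 1.65 CPM in T2MG libraries, against 189, 364, 391 and 367 CPM in Controls (-6.79, SE 0.55, adjusted p 4.36e-08). In each of these 3 genes T2MG 1 was the highest T2MG library. The others of the 15 were Ecscr, Upk1b, Sall3, Naalad2, Mlph, Col27a1, Myadml2, Csmd3 and Sall1, whose T2MG libraries all lay under 1 CPM.

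The largest gains included genes of other macrophages and of inflammation. The 15 highest log2 fold changes under the same conditions ran from 7.15 to 9.89. Mmp13, a collagenase (chr9:7272514-7283331, plus strand), had 605, 795, 903 and 988 CPM in T2MG libraries, against 7.14, 0.71, 0.29 and 0.72 CPM in Controls (8.51, SE 0.74, adjusted p 8.79e-08; 10.47 without Control 1). Clec4n, or dectin-2, a fungal pattern receptor (chr6:123229843-123247021, plus strand), had 1435, 1355, 1582 and 1772 CPM in T2MG libraries, against 17.6, 2.27, 1.66 and 2.24 CPM in Controls (8.0, SE 0.74, adjusted p 1.63e-07; 9.54 without Control 1). Vcam1, an adhesion molecule, had 3436, 3650.2, 4978 and 4797 CPM in T2MG libraries, against 63.9, 13.4, 13.4 and 6.72 CPM in Controls (7.43, SE 0.69, adjusted p 1.83e-07; 8.55 without Control 1). In all 3 genes Control 1 was the highest Control, and every T2MG library was still far above it.

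Mrap, an accessory protein of the melanocortin receptor, had 2267 counts over the T2MG libraries and 2 over the Controls, a T2MG over Control ratio per library size of 1191 with a 95% exact interval of 329.4 to 9842. Lbx1, a homeobox factor known from muscle and spinal cord development, had 15.3, 37.8, 21.7 and 8.41 CPM in T2MG libraries, against 0.277, 0.071, 0 and 0 CPM in Controls (7.70, SE 0.97, adjusted p 6.42e-06; 9.24 without Control 1). Ehf, an epithelial ETS factor, had 6.62 to 19.5 CPM in T2MG libraries and 0.0693 to 0.08 CPM in Controls (7.16, SE 1.05, adjusted p 3.34e-05). These factors were close to absent from Controls. Nxpe5 (7.18, adjusted p 2.57e-07; 9.02 without Control 1) and Fsd2 (7.15, adjusted p 1.59e-06; 9.08 without Control 1) belonged to the 15 as well, as did Ifi202b, Il10, Marco, Cxcl1, Spic, Cxcl2 and Cd209f, described with their groups.

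Genes that mark border-associated macrophages, the macrophages of the meninges and perivascular spaces, rose together. Of 23 tested members 21 were called higher and 0 lower, with a median of 4.8; without Control 1 all 23 were higher, with a median of 5.80. Mrc1, the mannose receptor CD206 (chr2:14229392-14332057, plus strand), had 1882, 3184, 2165 and 2489.6 CPM in T2MG libraries, against 97.3, 67.3, 34.2 and 29.5 CPM in Controls (5.41, SE 0.42, adjusted p 2.50e-08). Cd163, the haemoglobin scavenger receptor, had 963, 2568, 2801 and 768 CPM in T2MG libraries, against 40.3, 4.4, 3.55 and 4.96 CPM in Controls (7.05, SE 0.84, adjusted p 3.45e-06; 8.69 without Control 1). T2MG 2 and 3 held far more Cd163 than T2MG 1 and 4.

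Ms4a7, a membrane protein of brain border macrophages, had 924, 684, 783 and 1020.4 CPM in T2MG libraries, against 31.7, 2.77, 2.17 and 2.72 CPM in Controls (6.43, SE 0.79, adjusted p 5.20e-06; 8.38 without Control 1). Cd209f, a C-type lectin, had 753, 758, 700.1 and 717 CPM in T2MG libraries, against 14.9, 0.284, 0.29 and 0.56 CPM in Controls (7.49, SE 1.36, adjusted p 0.000308; 10.90 without Control 1). Siglec1, the sialoadhesin, had 168 to 316 CPM in T2MG libraries and 1.3 to 4.57 CPM in Controls (6.51, SE 0.62, adjusted p 2.56e-07). Dab2, an endocytic adaptor, had 2067 to 2759.6 CPM in T2MG libraries, against 49.3 to 166 CPM in Controls (4.78, SE 0.41, adjusted p 8.57e-08). Pf4, a platelet and macrophage chemokine, had 1111 to 1400.1 CPM in T2MG libraries and 2.75 to 32.1 CPM in Controls (6.85, SE 0.82, adjusted p 3.58e-06; 8.41 without Control 1).

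Some members depended on Control 1. Lyve1, the hyaluronan receptor, had 33.2, 41.6, 43.4 and 19.3 CPM in T2MG libraries, against 15.6, 0.923, 1.45 and 1.68 CPM in Controls (2.79, adjusted p 0.00299; 4.67 without Control 1). Cd209a, a C-type lectin, was not called with Control 1 (1.03, adjusted p 0.126) and was without it (1.74, adjusted p 0.00754), and Ccl8, a chemokine, did the same (1.90, adjusted p 0.0935; 5.24, adjusted p 0.000107). Cd163, Pf4, Lyve1, Cd209a and Ccl8 were chosen after their values were seen. Whether these reads came from microglia with a changed programme or from border-associated macrophages in the sort was not tested.

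Scavenger and C-type lectin receptors followed the same direction, with 13 of 20 called higher, 1 lower and a median of 1.98 (3.07 without Control 1). Marco, a scavenger receptor for bacteria, had 22.2, 22.6, 30.7 and 40.4 CPM in T2MG libraries, against 0.139, 0.071, 0 and 0.08 CPM in Controls (8.46, SE 0.91, adjusted p 1.08e-06). Msr1, scavenger receptor A, had 699 to 741 CPM in T2MG libraries and 5.28 to 26.1 CPM in Controls (5.94, SE 0.46, adjusted p 3.00e-08; 6.70 without Control 1). Clec5a, an activating lectin, was the 1 that fell, with 43.4 to 63 CPM in T2MG libraries and 112 to 135 CPM in Controls (-1.27, adjusted p 1.02e-05), a gene chosen after its values were seen.

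**Figure D3:**
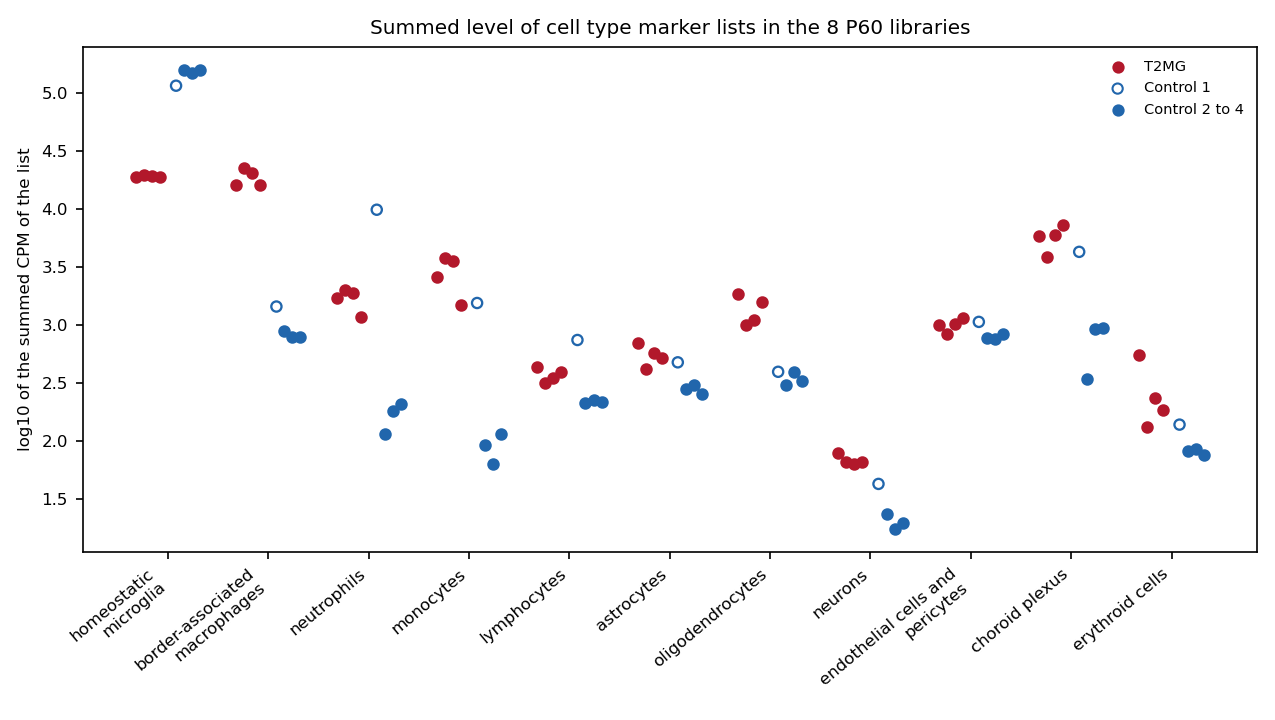
Summed level of 11 cell type marker lists in each P60 library, as log10 of CPM, with T2MG on the left and Control on the right; the open circle is Control 1. Border-associated macrophage genes are higher in all T2MG libraries, homeostatic microglia genes are lower in all of them, and Control 1 is highest of all P60 libraries for neutrophil (9865 CPM) and lymphocyte (744 CPM) genes.

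Apoe, the lipid carrier that is also a core gene of disease-associated microglia (chr7:19696109-19699188, minus strand), rose in every T2MG library. It had 48814, 45719, 45418 and 50607 CPM in T2MG libraries, against 2818, 2674, 2626 and 2646 CPM in Controls (log2 fold change 4.15, SE 0.23, adjusted p 7.49e-10). It took 3.866% to 4.404% of all counts of a T2MG library and 0.219% to 0.249% of a Control library. The groups were tight and far apart, and leaving out Control 1 gave 4.17.

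The list of lipid handling and transport genes, which holds Apoe, had 13 of 20 tested called higher and 2 lower, against 23.5% and 15.7% of all genes, with a median of 1.94. Pltp, the phospholipid transfer protein, had 1724 to 2202 CPM in T2MG libraries and 80 to 152 CPM in Controls (4.30, SE 0.23, adjusted p 5.10e-10). Plin2, a coat protein of lipid droplets, had 469.8 to 624 CPM in T2MG libraries, against 74.4 to 90.1 CPM in Controls (2.68, SE 0.18, adjusted p 5.66e-09). Abcg1, a cholesterol exporter, rose by 2.12 (SE 0.19, adjusted p 1.33e-07) and Lpl, lipoprotein lipase, by 3.64 (SE 0.61, adjusted p 0.000143) on the log2 scale. The 2 that fell were the receptor Lrp1 (-1.10, adjusted p 0.0127), with 78.5 to 169 CPM in T2MG libraries, 90.5 CPM in Control 1 and 266 to 309.7 CPM in Controls 2 to 4, and Npc1, a lysosomal cholesterol exporter (-1.05, adjusted p 0.000773). Lpl, Lrp1 and Npc1 were chosen after their values were seen.

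The disease-associated list, genes known to rise in microglia around amyloid plaques, was split, with 16 of 33 called higher, 9 lower and a median of 0.71. Igf1, an insulin-like growth factor, had 179, 216, 209 and 167 CPM in T2MG libraries, against 4.5, 8.1, 5.5 and 3.52 CPM in Controls (5.15, SE 0.47, adjusted p 1.48e-07). Axl, a receptor for dying cells, had 1115, 938, 1462 and 1299 CPM in T2MG libraries, against 202, 35.7, 46.5 and 44.6 CPM in Controls (3.87, SE 0.47, adjusted p 4.29e-06; 4.83 without Control 1). Cybb, a subunit of the phagocyte oxidase, had 806 to 959.5 CPM in T2MG libraries, against 229 CPM in Control 1 and 9.19 to 16.8 CPM in the other Controls (3.72, adjusted p 0.000743; 6.03 without Control 1). Control 1 was the highest Control for Axl and Cybb.

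Other genes of that list fell. Trem2, the lipid receptor on which the disease-associated state depends, had 121, 31.4, 32 and 24.9 CPM in T2MG libraries, against 1254, 1529, 1082 and 1168 CPM in Controls (-4.58, SE 0.46, adjusted p 4.43e-07). Ctsd, a lysosomal protease, had 1680 to 2707 CPM in T2MG libraries and 14612 to 24403 CPM in Controls (-3.29, SE 0.27, adjusted p 5.12e-08). Gpnmb, a transmembrane glycoprotein, had 1.55, 0.446, 2.18 and 1.51 CPM in T2MG libraries, against 2.7, 1.14, 13.2 and 10.6 CPM in Controls (-2.26, SE 0.62, adjusted p 0.00739), with overlapping groups, and limma voom did not call it (-1.78, adjusted p 0.162). Spp1, or osteopontin (9.56 to 46.1 CPM in T2MG libraries and 11.9 to 38.4 CPM in Controls, -0.16, adjusted p 0.792), and Itgax, or CD11c (0.48, adjusted p 0.264), were not called. Cybb, Trem2 and Gpnmb were chosen after their values were seen.

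Cytokines and chemokines showed a few very large gains. Il10, the anti-inflammatory interleukin-10 (chr1:131019845-131024974, plus strand), had 125, 170.2, 196 and 137 CPM in T2MG libraries, against 0.554, 0.355, 0.29 and 0.08 CPM in Controls (8.87, SE 0.40, adjusted p 1.57e-10). Cxcl2, a neutrophil attractant (chr5:90903871-90905938, plus strand), had 1859.7, 2683, 2668 and 1825 CPM in T2MG libraries, against 47.3, 2.63, 2.82 and 10.2 CPM in Controls (7.16, SE 0.81, adjusted p 1.86e-06; 8.77 without Control 1). Its relative Cxcl1 had 71.8, 71.8, 122 and 82.6 CPM in T2MG libraries, against 0.97, 0, 0 and 0.56 CPM in Controls (7.79, SE 0.59, adjusted p 2.03e-08; 8.88 without Control 1). Both an anti-inflammatory cytokine and neutrophil attractants were thus among the largest rises.

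Monocyte attractants rose too. Ccl7 had 436 to 646 CPM in T2MG libraries and 2.27 to 23.9 CPM in Controls (5.70, SE 0.50, adjusted p 8.93e-08; 6.39 without Control 1), Ccl12 rose by 3.00 (adjusted p 9.54e-08) and Ccl2 by 1.96 (adjusted p 0.000349) on the log2 scale. Il1b, the pyrogenic interleukin-1 beta, had 144, 118, 151 and 159.6 CPM in T2MG libraries, against 14.5, 5.26, 3.04 and 5.44 CPM in Controls (4.34, SE 0.43, adjusted p 4.13e-07; 4.97 without Control 1). Il1a, the alarm cytokine beside it, fell, with 43 to 83.3 CPM in T2MG libraries and 179 to 336 CPM in Controls (-2.0, SE 0.32, adjusted p 8.73e-05), and Tnf was not called (-0.44, SE 0.26, adjusted p 0.183). Of 27 inflammatory genes, 12 were called higher and 1 lower, with a median of 1.36, and Il1a was that 1. Il1b, Il1a and Tnf were chosen after their values were seen.

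NF-kappaB, the factor that drives many of these cytokines, is described by a list of 15 factors and regulators, of which 9 were called higher and 1 lower, with a median of 1.05. Nfkbiz, an inducible nuclear cofactor, had 1085 to 1709 CPM in T2MG libraries and 179 to 423 CPM in Controls (2.08, SE 0.26, adjusted p 6.49e-06). Tnfaip3, or A20, which terminates the signal, rose by 1.88 on the log2 scale (SE 0.21, adjusted p 1.55e-06). The subunit gene Nfkb1 was the 1 that fell, to 32.7 to 42.3 CPM in T2MG libraries, against 189.9 to 250.1 CPM in Controls (-2.54, SE 0.17, adjusted p 7.15e-09).

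Matrix proteases went both ways, with 9 of 22 called higher and 7 lower and a median of 0.44 (1.27 without Control 1). Of all genes, 23.5% were called higher and 15.7% lower. Adam19, a sheddase, had 68.6, 151, 142 and 108 CPM in T2MG libraries, against 2.91, 0.568, 0.869 and 0 CPM in Controls (6.71, SE 0.59, adjusted p 1.03e-07; 7.87 without Control 1). The related sheddase Adam10 fell (-1.41, SE 0.18, adjusted p 5.57e-06), and so did Serpine2, a thrombin inhibitor, with 41.2 to 136 CPM in T2MG libraries and 1060.1 to 1736 CPM in Controls (-4.06, SE 0.44, adjusted p 1.22e-06). Mmp9, a gelatinase that neutrophils also store, had 794, 1787, 1655 and 705 CPM in T2MG libraries, against 166, 3.84, 3.4 and 4.88 CPM in Controls (4.79, adjusted p 0.00116; 8.26 without Control 1). Mmp9 made up most of the neutrophil marker sum of T2MG 2, 3 and 4.

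Interferon-stimulated genes rose almost as a block. Of 35 tested members 33 were called higher and 0 lower, a share of the list to be read beside 23.5% of all genes called higher, and the median was 2.01 (2.45 without Control 1). Type I interferon acts through a complex that holds STAT2 and IRF9 and binds a promoter element built on GAAA, any 2 bases and GAAA again. Of the list, 27 genes had a promoter in the RefSeq table (GRCm38.p6), and 18 of their 33 promoters, taken from 250 bases before to 50 after the start, held this repeat on either strand (54.5%). The same letters stood in 3.12% of 14903 promoters of all tested genes, in 4.11% of those called higher and in 2.59% of those called lower. A match is a description of the letters, not a shown binding site. The list holds genes known to respond to interferon, so a high share of the repeat among them is no result of these data. The 250 bases before the start are printed for 4 genes, with the repeat in capitals. They are the first of the list, by adjusted p, that hold the repeat there, and were picked for holding it.

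Bst2 (chr8:71537473-71537722, minus strand): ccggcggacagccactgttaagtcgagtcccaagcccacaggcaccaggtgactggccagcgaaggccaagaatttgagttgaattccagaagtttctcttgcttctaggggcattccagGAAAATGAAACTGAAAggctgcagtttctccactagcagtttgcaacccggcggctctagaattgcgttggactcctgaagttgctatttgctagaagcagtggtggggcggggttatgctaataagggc
Oas1a (chr5:120907526-120907775, minus strand): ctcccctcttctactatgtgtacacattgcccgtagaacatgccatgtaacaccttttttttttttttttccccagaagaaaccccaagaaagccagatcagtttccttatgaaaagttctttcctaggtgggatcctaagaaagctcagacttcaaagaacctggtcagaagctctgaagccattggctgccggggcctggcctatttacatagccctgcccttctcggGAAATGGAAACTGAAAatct
Slfn5 (chr11:82951852-82952101, plus strand): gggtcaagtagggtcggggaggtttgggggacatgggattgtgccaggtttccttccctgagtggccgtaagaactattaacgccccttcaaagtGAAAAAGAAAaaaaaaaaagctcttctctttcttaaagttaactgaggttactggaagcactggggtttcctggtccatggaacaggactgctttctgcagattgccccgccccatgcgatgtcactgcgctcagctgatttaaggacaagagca
Stat2 (chr10:128270248-128270497, plus strand): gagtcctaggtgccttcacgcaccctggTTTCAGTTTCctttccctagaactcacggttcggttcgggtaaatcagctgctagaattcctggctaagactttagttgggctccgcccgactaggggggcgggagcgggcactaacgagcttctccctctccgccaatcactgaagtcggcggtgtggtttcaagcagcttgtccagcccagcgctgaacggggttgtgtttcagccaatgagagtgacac

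In Bst2 and Oas1a, 2 overlapping copies follow each other, beginning 130 and 124 bases before the start in Bst2 and 20 and 14 in Oas1a. Slfn5 holds 1 copy beginning 155 bases before the start, and Stat2 holds 1, beginning at 222, on the other strand, so that its capitals read as the reverse complement. Bst2, or tetherin, which holds budding viruses at the cell surface, had 297, 252, 266 and 345 CPM in T2MG libraries, against 77.7, 58.1, 59.7 and 61.3 CPM in Controls (2.17, SE 0.30, adjusted p 1.57e-05). Oas1a, a sensor of double-stranded RNA, had 103, 83.2, 89.7 and 124 CPM in T2MG libraries, against 21.6, 12.6, 9.7 and 7.12 CPM in Controls (2.97, SE 0.47, adjusted p 8.08e-05). Slfn5, a Schlafen family member, had 65.1, 80.9, 82.6 and 105 CPM in T2MG libraries, against 20, 6.25, 11.8 and 6.4 CPM in Controls (2.90, SE 0.47, adjusted p 0.000103). In all 3 genes the groups did not overlap and Control 1 was the highest Control. Stat2 rose by 1.05 on the log2 scale.

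Oas2, another RNA sensor, rose the most of the list, with 78.9, 89.5, 72.3 and 83.9 CPM in T2MG libraries, against 5.75, 1.92, 2.46 and 1.04 CPM in Controls (4.84, SE 0.52, adjusted p 1.14e-06; 5.47 without Control 1). Oas3 was not called (1.46, SE 0.80, adjusted p 0.16) and was without Control 1 (3.50, adjusted p 0.000781). Mx2, an antiviral GTPase (1.56, adjusted p 0.0321), missed the threshold without any 1 of Control 1 (adjusted p 0.0512), Control 2 (0.0877), Control 4 (0.0778), T2MG 1 (0.0687) or T2MG 2 (0.0688). Oas3 and Mx2 were chosen after their values were seen. Ifi202b, a p200 family gene of the innate DNA response that is not on the list, had 101, 101, 97 and 109 CPM in T2MG libraries, against 0.208, 0.284, 0.0724 and 0.08 CPM in Controls (9.20, SE 1.31, adjusted p 2.45e-05).

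Antigen presentation genes shifted upwards in part. For MHC class I, 7 of 14 tested were called higher and 0 lower, with a median of 0.66 (11 higher without Control 1). H2-D1, a classical class I chain, had 2553, 1664, 1688 and 2716 CPM in T2MG libraries, against 635, 329.8, 285 and 221 CPM in Controls (2.55, SE 0.31, adjusted p 3.74e-06). H2-Q4, a nonclassical chain, had 43.6 to 92 CPM in T2MG libraries and 3.2 to 10.3 CPM in Controls (3.67, SE 0.54, adjusted p 3.49e-05). Nlrc5, the class I transactivator, rose by 2.25 on the log2 scale (SE 0.38, adjusted p 0.000151).

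MHC class II genes depended on Control 1, with 6 of 15 called higher and 3 lower, and 10 higher and 3 lower without it. Of all genes, 23.5% were called higher and 15.7% lower, and 31.1% and 16.2% without Control 1. Cd74, the invariant chain, had 2394, 3326, 6428 and 2245 CPM in T2MG libraries, against 1942, 209.9, 222 and 462 CPM in Controls (2.34, SE 0.63, adjusted p 0.00701; 3.59 without Control 1). H2-Aa, a class II alpha chain, had 215, 220.3, 636 and 134 CPM in T2MG libraries, against 305, 42, 21.9 and 60.3 CPM in Controls, so the groups overlapped through Control 1 (1.49, adjusted p 0.114; 2.86, adjusted p 0.00172 without Control 1). H2-Ab1 (1.52, adjusted p 0.0901; 2.69, adjusted p 0.00225 without Control 1) and H2-Eb1 (1.07, adjusted p 0.274; 2.41, adjusted p 0.00853 without Control 1) did the same. T2MG 3 was the highest T2MG library for all 4.

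The 3 members that fell act on peptide loading. H2-Oa, a chain of the loading inhibitor H2-O, had 5.14, 1.34, 1.25 and 0.934 CPM in T2MG libraries, against 36.7, 48.9, 27.9 and 34.4 CPM in Controls (-4.08, SE 0.52, adjusted p 6.97e-06). Its partner H2-Ob fell by 3.21 (SE 0.60, adjusted p 0.000405) and the protease Ctss, which trims the invariant chain, by 2.06 (SE 0.22, adjusted p 1.23e-06) on the log2 scale. H2-Ab1, H2-Eb1 and H2-Ob were chosen after their values were seen, and near-identical H2 chains may share reads.

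**Figure D4:**
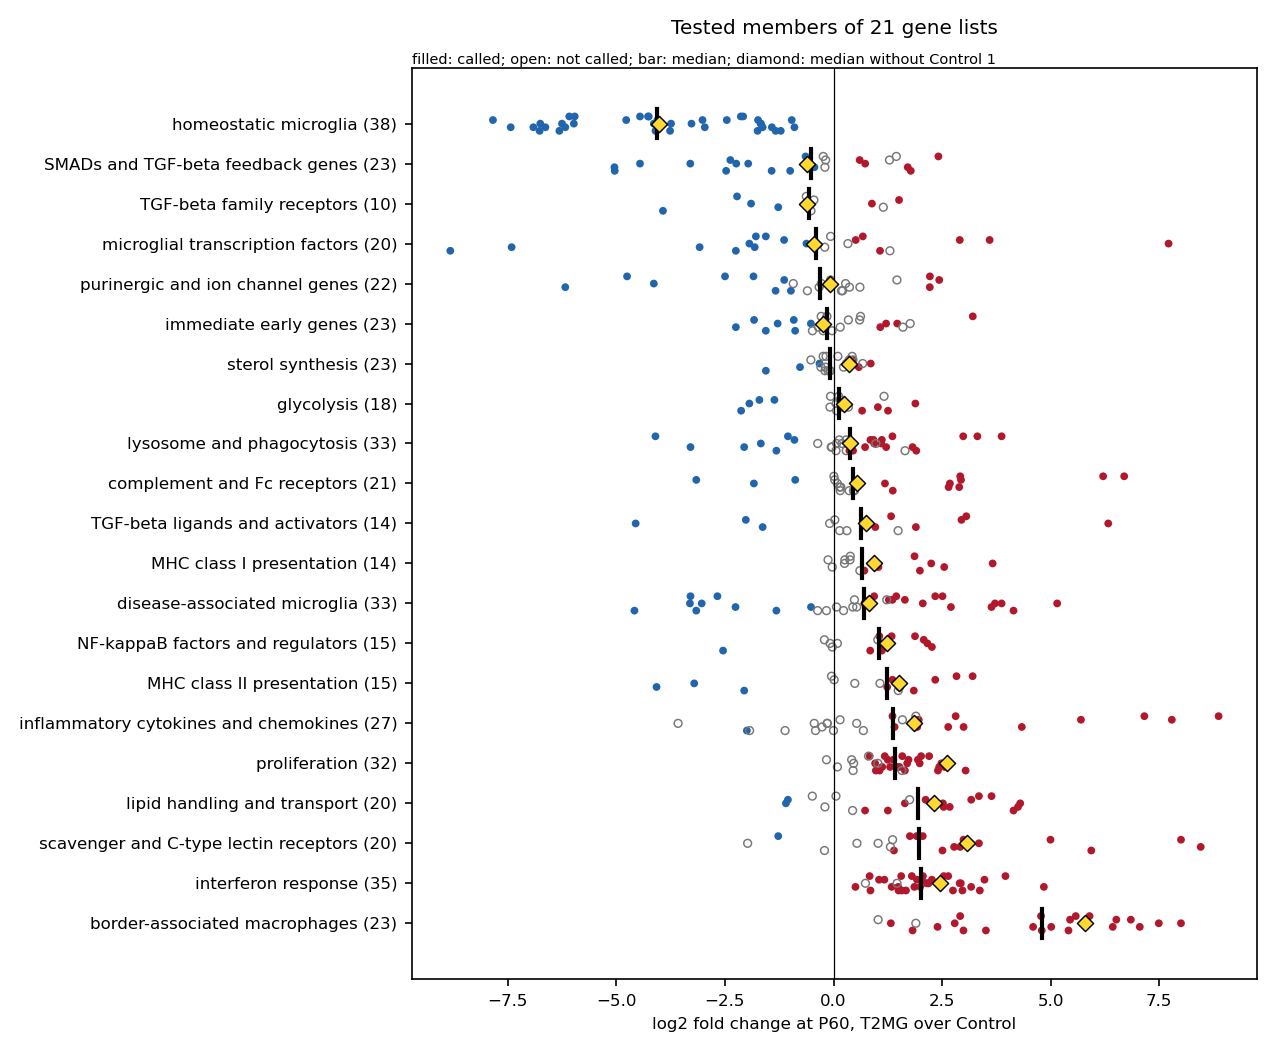
Log2 fold change of T2MG over Control for the members of 21 gene lists; filled points are called and open points are not, the bar is the list median and the yellow diamond is the median without Control 1. Homeostatic genes lie entirely below 0 (median -4.07), border-associated macrophage and interferon genes lie above it (medians 4.8 and 2.01), and most other lists spread to both sides.

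Of 21 tested complement and Fc receptor genes, 9 were called higher and 3 lower, where 23.5% and 15.7% of all genes were, with a median of 0.46. Properdin, Cfp, which stabilises the alternative pathway convertase, had 1984, 2164, 2758 and 2843 CPM in T2MG libraries, against 65.8, 8.74, 5.36 and 14.1 CPM in Controls (6.70, SE 0.66, adjusted p 4.04e-07; 8.02 without Control 1). C2, a protease of the classical pathway, had 276 to 488 CPM in T2MG libraries and 2.27 to 9.84 CPM in Controls (6.21, SE 0.41, adjusted p 5.60e-09; 6.80 without Control 1). C1qa, a chain of the classical starter, was not called, with 4070.2 to 4679 CPM in T2MG libraries and 3476 to 4107 CPM in Controls (0.15, SE 0.21, adjusted p 0.582); it was chosen after its values were seen. Itgam, or CD11b, the complement receptor subunit often used to sort microglia, fell to 102 to 135 CPM in T2MG libraries, against 713 CPM in Control 1 and 1164 to 1230.5 CPM in Controls 2 to 4 (-3.16, SE 0.21, adjusted p 6.80e-09).

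Lysosomal and phagocytic genes also moved to both sides (15 of 33 higher, 7 lower, median 0.37), where 23.5% of all genes were higher and 15.7% lower. Gaa, the acid alpha-glucosidase, rose by 1.21 (SE 0.14, adjusted p 2.10e-06), in contrast to Ctsd and Ctss above. Of 22 purinergic and channel genes, 3 were called higher and 8 lower, beside the same shares of all genes (median -0.31). Without Control 1, 7 were higher and 8 lower. Adora3, an adenosine receptor, had 1.34 to 1.97 CPM in T2MG libraries and 38.5 to 56.1 CPM in Controls (-4.75, SE 0.31, adjusted p 4.66e-09), and the proton channel Hvcn1 fell by 2.50 (SE 0.20, adjusted p 4.53e-08). P2rx4, an ATP-gated channel known to rise in reactive microglia, had 463 to 568 CPM in T2MG libraries and 95.1 to 142 CPM in Controls (2.22, SE 0.19, adjusted p 5.81e-08).

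Adgrl3, an adhesion receptor known from synapses, had 5.35, 10.2, 13.1 and 9.84 CPM in T2MG libraries and 0 counts in all Controls, at least 173.8-fold higher against the floor of 3 counts. Among adhesion genes, 9 of 26 were called higher and 9 lower, where 23.5% and 15.7% of all genes were, with a median of -0.08. Vcam1 and Itga4, a subunit of its integrin receptor, both rose; Itga4 had 25.6, 30.7, 19.3 and 22.8 CPM in T2MG libraries, against 4.85, 0.781, 0.724 and 1.68 CPM in Controls (3.60, SE 0.45, adjusted p 5.58e-06; 4.54 without Control 1). Growth factors showed 8 of 22 tested higher and 2 lower, with a median of 1.33. Bmp2, a bone morphogenetic protein, had 107, 162, 113 and 126 CPM in T2MG libraries, against 6.03, 0.923, 0.29 and 0.56 CPM in Controls (6.0, SE 0.69, adjusted p 2.26e-06; 7.72 without Control 1). Gas6, the ligand of Axl, rose by 1.82 (SE 0.22, adjusted p 3.20e-06), while Csf1, a ligand of Csf1r, fell by 2.67 (SE 0.32, adjusted p 3.97e-06) on the log2 scale.

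Sterol synthesis genes had 3 of 23 called higher and 3 lower (median -0.08), where 23.5% and 15.7% of all genes were. Glycolysis genes had 4 of 18 called higher and 4 lower (median 0.13), where 23.5% and 15.7% of all genes were, with a median of 0.14. Summed, the list had 2886 to 3490 CPM in T2MG libraries, 3586 CPM in Control 1 and 2565 to 2833 CPM in Controls 2 to 4. The 4 that fell had the smallest adjusted p of the list. They were Slc2a1, which imports glucose (-2.13, adjusted p 8.71e-08), Hk2, a hexokinase (-1.71, adjusted p 3.00e-07), Slc16a3, which exports lactate (-1.94, adjusted p 7.79e-07), and Pfkfb3, a regulator of the pathway (-1.36, adjusted p 0.000386). Immediate early genes, which also respond to cell dissociation, had 4 of 23 higher and 7 lower (median -0.15), where 23.5% and 15.7% of all genes were. Egr1 had 1369 to 2871 CPM in T2MG libraries and 8156 to 13002 CPM in Controls (-2.25, SE 0.32, adjusted p 2.36e-05). Nr4a2, an orphan nuclear receptor, rose to 8.89 to 11.2 CPM in T2MG libraries, against 0.4 to 2.01 CPM in Controls (3.21, SE 0.47, adjusted p 3.11e-05).

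Cell cycle genes were higher, at low levels. Of 32 proliferation genes 24 were called higher and 0 lower, where 23.5% and 15.7% of all genes were. The median was 1.42 (30 higher, median 2.61, without Control 1). The list summed to 1164 to 1720 CPM in T2MG libraries, 1301 CPM in Control 1 and 438 to 488 CPM in Controls 2 to 4. In this sum Control 1 thus lay within the T2MG range. Mki67, the marker Ki-67, had 24.6, 20.3, 13.5 and 14.9 CPM in T2MG libraries, against 8.94, 0.355, 2.03 and 2.4 CPM in Controls (2.40, SE 0.55, adjusted p 0.00209; 3.53 without Control 1). Kif23, a motor of cytokinesis, had 40.4 to 46.5 CPM in T2MG libraries, against 12.4 CPM in Control 1 and 1.78 to 4.32 CPM in Controls 2 to 4 (3.04, SE 0.43, adjusted p 2.40e-05; 3.93 without Control 1). Bub1b, a spindle checkpoint kinase, rose by 2.2 (SE 0.37, adjusted p 0.000141; 3.07 without Control 1). Whether dividing microglia or other dividing cells gave these reads was not tested.

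Most markers of astrocytes and oligodendrocytes were also called higher in T2MG libraries. Of 15 astrocyte markers 14 were called higher, with a median of 2.39 and sums of 418 to 694 CPM in T2MG libraries, against 477 CPM in Control 1 and 256 to 305 CPM in Controls 2 to 4. The exception was Slc1a3, a glutamate transporter that microglia also express, with 27.7 to 53 CPM in T2MG libraries and 201 to 229 CPM in Controls (-2.50, SE 0.30, adjusted p 3.99e-06). Gja1, the gap junction protein connexin 43, had 34.1 to 57.3 CPM in T2MG libraries and 1.52 to 7.9 CPM in Controls (3.14, SE 0.47, adjusted p 3.99e-05). Oligodendrocyte markers summed to 1008 to 1864 CPM in T2MG libraries and 305 to 396 CPM in Controls, with 13 of 15 called higher and a median of 2.79. Mbp, the myelin basic protein, had 995, 446, 567 and 594 CPM in T2MG libraries, against 152, 93.2, 110.2 and 77.9 CPM in Controls (2.59, SE 0.29, adjusted p 2.00e-06).

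Neuron markers summed to 63.8 to 79.6 CPM in T2MG libraries, against 42.8 CPM in Control 1 and 17.6 to 23.6 CPM in the other Controls, with 8 of 18 called higher and 0 lower. Choroid plexus genes summed to 3873 to 7268 CPM in T2MG libraries, against 4276 CPM in Control 1 and 340 to 948 CPM in Controls 2 to 4; 3 of 10 were called higher, and all 10 without Control 1. Ttr, the transthyretin of that tissue, had 2911, 1886, 2824 and 3084 CPM in T2MG libraries, against 1308, 176, 498 and 482 CPM in Controls (2.12, adjusted p 0.0203), a call that ended without Control 2 (adjusted p 0.0575), Control 3 (0.0526) or Control 4 (0.0545). Endothelial and pericyte genes showed 2 of 18 higher and 1 lower, where 23.5% and 15.7% of all genes were, with a median of -0.24. The part of these other cells in the changes of other genes was not tested.

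Neutrophil, monocyte and lymphocyte genes turned on Control 1. Since that library was left out because of these reads, how the 3 lists move without it is a description and no test. With all Controls, the neutrophil list had 1 of 18 called higher, 2 lower and a median of -2.50; without Control 1 it had 3 higher, 1 lower and a median of 1.45. S100a8, a neutrophil granule protein, had 93.9, 24.2, 24.4 and 52.3 CPM in T2MG libraries, against 1237, 16.3, 30.4 and 29.3 CPM in Controls (-2.75, adjusted p 0.0588; 0.94, adjusted p 0.25 without Control 1). The monocyte list went to 14 of 18 higher without Control 1, against 3 with it. Ly6c2, a surface protein of inflammatory monocytes, had 27.3, 5.53, 9.43 and 14.5 CPM in T2MG libraries, against 174, 2.49, 1.23 and 3.28 CPM in Controls (-1.67, adjusted p 0.239; 2.62, adjusted p 0.00496 without Control 1). The lymphocyte list had 1 of 20 higher and 1 lower with Control 1, and 19 higher and 1 lower without it (median 3.38).

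The monocyte sum of T2MG libraries consisted mostly of F13a1, a coagulation factor subunit that border-associated macrophages also express, with 2267, 3541, 3268 and 1259 CPM in T2MG libraries, against 321, 16.5, 9.55 and 24.4 CPM in Controls (4.8, SE 0.89, adjusted p 0.000354; 7.26 without Control 1). Jchain, the joining chain of plasma cell antibodies, was one of the 5 genes averaging at least 10 CPM in a group whose fold change moved most without Control 1. It had 0.282, 10.3, 7.87 and 0.503 CPM in T2MG libraries, against 668, 1.07, 0.651 and 0.4 CPM in Controls (-5.17, adjusted p 0.0307; 2.67, adjusted p 0.106 without Control 1). Ms4a4b, a T cell membrane protein, had -1.29 (adjusted p 0.434) with and 4.86 (adjusted p 0.000255) without that library. Dnase1l3, a secreted nuclease, had 18.6, 29.4, 37.4 and 36.1 CPM in T2MG libraries, against 19.9, 0, 0.217 and 0.16 CPM in Controls (2.57, adjusted p 0.0819; 7.83, adjusted p 4.04e-05 without Control 1). Timd4, a phosphatidylserine receptor of resident macrophages, had 22.4 to 50.6 CPM in T2MG libraries and 6.44, 0.071, 0.0724 and 0 CPM in Controls (4.46, adjusted p 0.000759; 9.30 without Control 1).

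T2MG libraries were alike for most genes, with an SD of log2 CPM over 1 in 66 of 9364 genes, against 444 among the 4 Controls and 69 among Controls 2 to 4. Pomc, a hormone precursor, had 0.211, 0.0891, 262 and 0.0718 CPM in T2MG libraries, against 1.32, 0.426, 0.217 and 0.64 CPM in Controls, so its call (6.63, adjusted p 0.0137) rested on T2MG 3 and turned to -2.29 (adjusted p 0.188) without it. Vnn3, a pantetheinase, had 0.0704, 0.178, 15.7 and 42.7 CPM in T2MG libraries, against 1.18, 0.142, 0.145 and 0 CPM in Controls (5.26, adjusted p 0.00435), a call that ended with limma voom (3.36, adjusted p 0.164). St6galnac2, a sialyltransferase, had 38.4, 181, 235 and 351 CPM in T2MG libraries, against 2.98, 0.355, 31.2 and 0.48 CPM in Controls (4.52, adjusted p 0.0012). Plxnd1, a semaphorin receptor, had 66.8, 223, 24.6 and 17.2 CPM in T2MG libraries and 0.568 to 3.12 CPM in Controls (5.63, SE 0.86, adjusted p 5.04e-05). Havcr2, the checkpoint receptor TIM-3, had 30.4, 4.01, 3.2 and 5.32 CPM in T2MG libraries, against 225, 521, 357 and 408 CPM in Controls (-5.12, SE 0.67, adjusted p 9.74e-06). These 5 genes had the widest spread among T2MG libraries of called genes with at least 10 CPM in T2MG.

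More genes were called in the adult comparison than at P15, where 1821 were higher (11.7%) and 1917 lower (12.3%) with 3 libraries a group. Genes called higher at both ages numbered 1256, which is 34.3% of those at P60 and 69% of those at P15, and genes called lower at both ages 1192 (48.7% and 62.2%). Opposite calls were found for 93 genes higher at P60 and lower at P15, and for 11 lower at P60 and higher at P15. The difference between the P60 and the P15 effect was called for 1249 of 15568 genes (8.02%), 876 higher (5.63%) and 373 lower (2.4%). Without P60 Control 1 it was called for 2665 of 15542 genes (17.1%), 2144 higher and 521 lower. Sex was unbalanced at P15: more than 10 CPM of Ddx3y was found in 2 of 3 T2MG libraries and in 0 of 3 Controls, and more than 10 CPM of Xist in 1 T2MG library and in all 3 Controls. Its part in the P15 values was not tested. P15 T2MG 3 lay apart from P15 T2MG 1 and 2 for some genes, such as Cx3cr1 (20.5 CPM, against 343 and 354 CPM). Leaving out single P15 libraries was not done. The ages were also different libraries, and a difference of effects between ages cannot be told apart from one between sorts and library preparations.

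Of the 38 homeostatic genes, 37 were called lower at P15 as well, where 12.3% of all genes were. For 4 the fall at P60 was called steeper, where 2.4% of all genes had a lower adult effect. Those 4 were Sparc, Adgrg1, Selplg and Cd33. Sall1, among the transcription factors, also had a lower effect called in the adult. At P15 it had 7.11, 11.5 and 0.736 CPM in T2MG libraries, against 229, 206 and 225 CPM in Controls. The P60 effect was lower by 3.75 on the log2 scale (SE 0.78, adjusted p 0.00935). P15 T2MG 3 lay within the adult T2MG range of 0.446 to 0.916 CPM, so only P15 T2MG 1 and 2 held more. Selplg fell by 2.52 at P15 and the difference was -1.74 (SE 0.26, adjusted p 0.00143), and Ikzf1 fell by 0.80 at P15 with a difference of -1.02 (SE 0.19, adjusted p 0.00425). Tmem119 (difference -1.75, adjusted p 0.163) and P2ry12 (-1.38, adjusted p 0.18) were not called for it.

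Of the 27 inflammatory genes, 5 had an adult effect called higher than the juvenile one and 0 a lower one, where 5.63% and 2.4% of all genes did. Il10 at P15 had 11.7, 11.8 and 6.21 CPM in T2MG libraries, against 1.51, 1.62 and 1.53 CPM in Controls, and the adult effect was higher by 6.20 (SE 0.52, adjusted p 4.31e-06). Cxcl2 at P15 had 244, 213 and 465 CPM in T2MG libraries, against 72.2, 67.6 and 68.1 CPM in Controls (difference 5.01, SE 1.00, adjusted p 0.00722; 6.62 without P60 Control 1). Tnfaip3 did not pass the test at P15 (-0.29, adjusted p 0.383), and its difference of 2.17 was called (SE 0.31, adjusted p 0.000986). Ifi202b at P15 had 0.605, 53.3 and 36.7 CPM in T2MG libraries, against 40.8, 21.1 and 0.701 CPM in Controls (difference 8.66, SE 1.64, adjusted p 0.00534). The level of Ifi202b at P15 thus split within both groups, while at P60 it separated them. The strain entry named C57Bl6 and FVB without telling P60 libraries apart, and the part of strain alleles in this gene was not tested. Nr4a2 fell by 1.62 at P15 (adjusted p 0.0242) and rose at P60, a difference of 4.83 (SE 0.68, adjusted p 0.000986).

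Disease-associated genes Gpnmb and Spp1 rose at P15 and not at P60. Gpnmb at P15 had 108, 39.6 and 96.8 CPM in T2MG libraries, against 6.36, 2.3 and 4.08 CPM in Controls, and the adult effect was lower by 6.51 on the log2 scale (SE 0.93, adjusted p 0.000986). Spp1 at P15 had 80.9, 106 and 213 CPM in T2MG libraries, against 30.9, 34 and 19.6 CPM in Controls (difference -2.41, SE 0.65, adjusted p 0.0311). Apoe (difference 0.63, adjusted p 0.207) and Mmp13 (-1.07, adjusted p 0.531) were not called for a difference. Of the 33 disease-associated genes, 0 had a higher adult effect and 5 a lower one, where 5.63% and 2.4% of all genes did.

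Interferon genes called higher numbered 33 of 35 at P60, where 23.5% of all genes were, and 3 of 35 at P15, where 11.7% were. The adult effect was called higher for 2 of 35, against 5.63% of all genes: Oas2 (2.74, SE 0.71, adjusted p 0.0254) and Slfn5 (2.64, SE 0.69, adjusted p 0.0266). At P15 Slfn5 had 48.1, 30.7 and 10.1 CPM in T2MG libraries, against 27.8, 14.4 and 31.8 CPM in Controls, so those groups overlapped. Proliferation genes had 3 of 32 called higher at P15 and 4 of 32 with a higher adult effect, where 11.7% and 5.63% of all genes did. Choroid plexus genes went opposite ways, with 0 of 10 called higher and 4 lower at P15, where 11.7% and 12.3% of all genes were. A higher adult effect was called for 6 of 10, where 5.63% of all genes had one. Ttr at P15 had 1888, 1578 and 542 CPM in T2MG libraries, against 5155, 3751 and 7309 CPM in Controls.

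**Figure D5:**
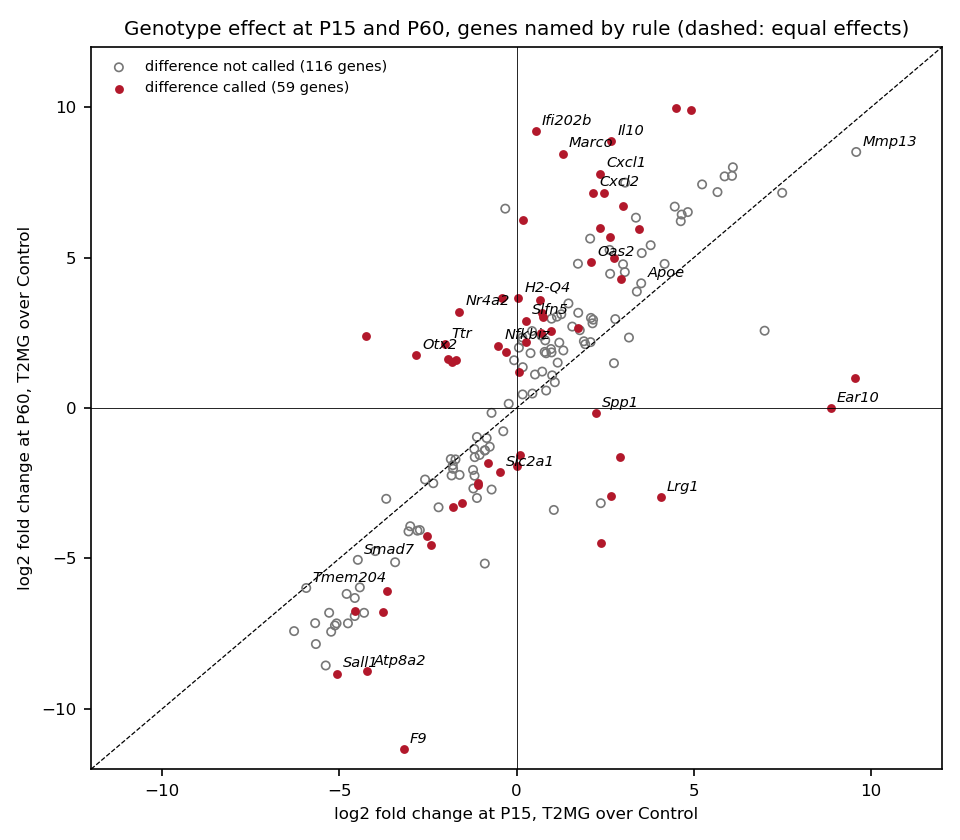
Log2 fold change of T2MG over Control at P15 (horizontal axis) and at P60 (vertical axis) for 175 genes chosen by rule, without sex-linked genes. Red points are the 59 genes called for a difference between ages, where 8.02% of all genes tested were, and grey points the 116 that were not. Some of the genes were chosen for that difference. The dashed line marks equal effects, with Il10, Ifi202b and Marco above it and Sall1 and F9 below.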

How the data were processed

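Poly-A RNA of sorted microglia was sequenced in 20 libraries. Per the labels' protocols, RNA was isolated with a Qiagen RNeasy Plus Micro kit and libraries were made with a Clontech SMART-Seq ultra low input kit. The submitters' processing notes name TopHat2 (0.7), Cufflinks (2.2.1) and the build mm10, with no role; the sources used here do not name the counting tool or its use of strand. The authors deposited raw read counts per gene symbol for 24421 entries. Of these, 27 were calendar dates in place of symbols, at 0.14% to 0.171% of the counts of a P60 library, and were left out. Libraries were grouped by the labels. Depth at P60 was 12726594 to 16526122 counts, and chi-square per gene of replicate pairs was 15.6 to 102.7, so every pair differed by more than sampling noise. Among P15 T2MG libraries it was 73.6 for 1 and 2, 123.7 for 1 and 3, and 152.5 for 2 and 3.

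Counts were tested with edgeR 4.0.16 (R 4.3.3): quasi-likelihood F test on 1 mean per age and genotype over all 20 libraries, which share 1 estimate of the spread, filterByExpr by group, TMM scaling and Benjamini-Hochberg adjustment over 15568 genes, with calls at an adjusted p under 0.05. SE is the absolute log2 fold change over the square root of F. The fit was tested on simulated data. Exact 95% intervals and the floor of 3 counts cover counting error only. Alternatives were RLE and upper-quartile scaling, no filter beyond 1 count, DESeq2 1.42.0, limma 3.58.1 voom, the P60 libraries alone, a replicate block and leaving out each P60 library; P60 libraries alone without Control 1 was added after the data were seen.

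The members and the 34 gene lists (649 genes) were chosen with earlier results of these data known. Genes were named by rule: Tgfbr2, the 15 highest and 15 lowest fold changes, per list the 4 genes of smallest adjusted p, 24 genes given by name, the 5 highest and 5 lowest differences between ages, the 5 genes most variable among T2MG libraries and the 5 that moved most without Control 1. The extremes were taken among genes averaging at least 10 CPM in a group, with an established symbol, and other genes are said to be chosen after their values were seen. Positions are from GENCODE M21 (GRCm38). Among named genes 28 share exon bases with another gene, so their counts may hold that gene's reads; they include P2ry12, Csf1r, Cd74, Pltp, C2, Slfn5, Atp8a2, Ecscr, Eng, Gas6, Itga4, Adora3, Hvcn1, Nlrc5, H2-Oa, Il1a and Il1b. Some genes are not reported here.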

Additional observations from a re-analysis of the deposited data

Results flagged for a closer look

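Of 122 groups of 4 P60 libraries, 27 held a library apart from the other 3 of its group by the ratio of Dixon's test. That ratio sets the gap to the nearest library against the range of the 4, so it can be large where values differ little. Its nominal rate of 5% assumes normal values and independent groups, which genes with few counts do not give. The 27 are therefore a description. Control 1 was that library in 19. It was high for genes that rose in T2MG libraries: Mrap (0.139 CPM), Mmp13 (7.14), Clec4n (17.6), Cd209f (14.9), Vcam1 (63.9), Nxpe5 (1.46), Cxcl2 (47.3), Fsd2 (0.693), Axl (202) and Ms4a7 (31.7 CPM). It was also high for Cd74 (1942 CPM) and H2-Aa (305 CPM), and low for Rasgrp3 (189 CPM). The 0.139 CPM of Mrap are 2 counts, against 0 in the other Controls. Its summed levels stood apart for border-associated macrophage (1445 CPM), neutrophil (9865), monocyte (1550), lymphocyte (744), choroid plexus (4276) and erythroid genes (139 CPM). It had been set apart for its neutrophil, monocyte and lymphocyte reads to begin with, so those 3 sums describe it and test nothing. Whether its other flags came with the same reads was not tested.

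T2MG 1 was flagged as the highest T2MG library for the homeostatic genes Cx3cr1, Siglech (38.2 CPM) and Olfml3 (50.1 CPM). It was also flagged as highest for Mlxipl (4.86 CPM), Rasgrp3 (6.69 CPM) and the summed neuron genes. For Cx3cr1 the gap was small, at 660 CPM against 558 to 567 CPM in the other T2MG libraries. So was the gap of the neuron genes, at 79.6 CPM against 63.8 to 66.4 CPM. T2MG 2 stood apart for Smad3 (25.3 CPM) and T2MG 3 for Adamts16 (0.234 CPM, its 3 counts being the only ones of the group).

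Of 175 genes chosen by rule, 59 had a genotype effect called different between P60 and P15 by edgeR's test of the difference, where 8.02% of all genes did. The rule took some genes for this same difference and others for an extreme P60 effect, so the count of 59 reflects the choice of genes. Of the 59, 18 are given here. The P60 effect was higher for Mrap by 4.98 on the log2 scale (adjusted p 0.00449), Ifi202b by 8.66 (0.00534), Il10 by 6.2 (4.31e-06), Marco by 7.16 (0.00253), Cxcl1 by 5.45 (0.000976), Cxcl2 by 5.01 (0.00722) and Ehf by 4.68 (0.0395). Without P60 Control 1 the difference was 7.22 for Mrap, 6.53 for Cxcl1 and 6.62 for Cxcl2. Spag6, a cilium protein, had 5.14 to 7.9 CPM in T2MG libraries and 0.08 to 3.19 CPM in Controls at P60, and 0 to 1.24 CPM in T2MG libraries and 4.81 to 13.8 CPM in Controls at P15 (difference 6.64, adjusted p 0.00522; 7.74 without P60 Control 1). Col6a2, a collagen chain, differed by 6.06 (adjusted p 0.0488), which missed the threshold without P60 Control 1 (7.58, adjusted p 0.0654).

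The P60 effect was lower for F9 (-8.15, adjusted p 0.00573), Sall1 (-3.75, 0.00935), Atp8a2 (-4.53, 0.000986), Rasgrp3 (-3.01, 0.0146) and Spp1 (-2.41, 0.0311). Ear10, an eosinophil-associated ribonuclease, had 9.4 to 18.8 CPM in T2MG libraries and at most 0.063 CPM in Controls at P15, but 0.535 to 0.857 CPM in T2MG libraries and 0 to 1.8 CPM in Controls at P60 (difference -8.85, adjusted p 0.00488; -7.62 without P60 Control 1). H2-Ea-ps, a class II pseudogene, had 6680.3, 2481 and 815 CPM in T2MG libraries and 0.567 to 7.11 CPM in Controls at P15, with overlapping groups at P60 (difference -8.55, adjusted p 0.0128; -6.91 without P60 Control 1). Lrg1, a secreted glycoprotein that neutrophils also make, differed by -7.03 (adjusted p 0.0151; -3.48 without P60 Control 1, which held 57.8 CPM). Nlrp12, an innate immune regulator, differed by -6.87 (adjusted p 0.0305) and was not called without P60 Control 1 (-3.42, adjusted p 0.233).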

How the results depend on the processing

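Counts of calls at P60 stayed within 1.5 times the reported ones in all 16 settings: 3028 to 4833 genes higher and 2116 to 2521 lower with 1 library left out, and 2720 to 4216 higher and 2333 to 3650 lower otherwise. The split between higher and lower calls moved most with the P60 libraries alone (48.1% higher, against 60% of all calls), where the median over all genes was -0.004 in place of 0.137. The P60 minus P15 difference was less stable. It was higher for 1329 genes by DESeq2 and 1472 by limma voom, against 876, and lower for 959 by DESeq2, against 373. With 1 library left out it was higher for 558 (without T2MG 4) to 2144 genes (without Control 1) and lower for 244 (without T2MG 4) to 521 (without Control 1); the cause was not tested.

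Of 212 named genes, 167 kept their direction and their side of the threshold in every setting that gave a value, which was 16 settings, or 15 for Cd209f, Cybb, Lyve1 and Slc2a5. Signs turned with 1 library left out for Wfdc21 (-3.49 to 0.73), Cd177 (-3.57 to 2.07), Cd8a (-4.14 to 2.82), Tsix (-0.68 to 1.39), Ddx3y (-0.35 to 1.43), Xist (-0.84 to 1.25), Spp1 (-0.63 to 0.11), Ear10 (-0.41 to 1.24), Lrg1 (-3.36 to 0.59), Pomc (-2.29 to 7.24), Jchain (-5.88 to 2.67), Ms4a4b (-1.72 to 4.86), Ly6c2 (-2.20 to 2.62) and S100a8 (-3.29 to 0.94). With the P60 libraries alone and without Control 1, Wfdc21 was 0.59, Cd177 1.93, Ddx3y -0.26, Lrg1 0.47, Jchain 2.60, Ms4a4b 4.74, C1qa -0.011, Ly6c2 2.49 and S100a8 0.82. limma voom turned Cd177 (0.30), Cd8a (0.39), Ddx3y (-0.85), Xist (-0.83), Ms4a4b (2.82) and Ly6c2 (0.88), and ended the calls of Col1a2, Col6a2, Cxcr2, Gpnmb, Jchain, Lrg1, Nlrp12, Pomc, Vnn3 and Wfdc21. Ear10, near 0, was -0.037 under RLE scaling, -0.028 under upper-quartile scaling and -0.033 by DESeq2.

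Calls of Ace, Enpp2, Otx2, Mx2, Ttr, Spag6, Col1a2 and Bank1 were lost when single libraries were left out, the adjusted p of Enpp2 reaching 0.126 and that of Otx2 0.075. Deviations of libraries with the same replicate number correlated at 0.224, 0.13, 0.009 and -0.063, so the numbers were not taken as pairs. With the replicate block, 4011 genes were called higher and 2342 lower at P60, and 1152 and 366 for the difference between ages; Cd177 became 0.38, Ddx3y -0.57, Xist -0.072, Jchain 0.60, Ms4a4b 2.49 and Ly6c2 0.82. The block ended the calls of Vnn3 (4.04, adjusted p 0.0674), Cxcr2, Lrg1, Nlrp12, Pomc and Wfdc21. Genes near 0 counts in a group have fold changes that depth limits, and counts per gene do not show the Tgfbr2 deletion.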
